A study of Mus musculus with 28 samples.

Results

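The stretches of the mouse genome around Bcl2l1, Myh9 and Smad7 carried very wide active chromatin in lung tumours. They were chosen from these data: they hold the longest region that all 4 libraries of H3K27ac share, the longest of H3K4me1 and one of the 2 longest of H3K4me3. The windows, in the coordinates of the mm9 mouse genome build, were chr2:152590000-152675000 for Bcl2l1 (85 kb), chr15:77580000-77690000 for Myh9 (110 kb) and chr18:75500000-75575000 for Smad7 (75 kb). Every called peak that touched a window was counted, which gave 968 of the 950445 peaks in the series. The Bcl2l1 window held 400 peaks, the Myh9 window 345 and the Smad7 window 223.

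Bcl2l1 encodes Bcl-xL, a protein of the Bcl2 family that holds back apoptosis at the mitochondrial outer membrane. Myh9 encodes the heavy chain of non-muscle myosin IIA, a motor of the actin cytoskeleton used in cell shape, adhesion and division. Smad7 encodes an inhibitory Smad, which is induced by TGF-β and dampens signalling from the TGF-β receptors. Of the marks, H3K27ac lies at active promoters and enhancers, H3K4me1 at enhancers and around promoters, H3K4me3 at active promoters, and H3K79me2 over the transcribed part of genes from the start onwards. H3K27me3 marks Polycomb-repressed chromatin and H3K9me3 marks heterochromatin. Mll4 is a histone methyltransferase that places H3K4me1 at enhancers.

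Chromatin immunoprecipitation followed by sequencing was done on lung tumours from mice that carried the Cre-activated K-RasLSL-G12D allele, alone or together with floxed alleles of Mll4 (K-RasLSL-G12D;Mll4fl/fl). All mice had received Ad-CMV-Cre, an adenovirus that delivers Cre recombinase under a promoter active in many cell types. The recombined cells may therefore be of more than 1 lung cell type, which was not examined. Each of 6 marks had 4 libraries, numbered as replicates 1 to 4, and 4 input samples without antibody were not analysed here. The labels give 2 tumour types but do not tie a library to a type. The names of the deposited files carry prefixes that may stand for the types, but file names were not used to assign samples, and the ages of the mice are not given, so no comparison between genotypes was made and the spread within a mark, such as the split of H3K27ac replicates 1 and 2 from 3 and 4, can include a difference between them. The labels also do not say whether replicates are separate animals, and p-values measure only the spread between these libraries. In whole tumour tissue, a mark carried by fewer cells and a weaker mark in every cell cannot be told apart. The tissue label was not checked against marker genes, because no gene positions in mm9 were used here.

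Peak lists carry no read counts, so the depth of every library is unknown. Libraries of a mark covered different shares of the genome between the first and last covered base of each chromosome: 0.777%, 0.859%, 4.49% and 4.40% for H3K27ac replicates 1 to 4, 0.602% to 2.16% for H3K4me1, 4.46% to 6.05% for H3K79me2, 0.420% to 3.98% for H3K27me3 and 0.0805% to 0.229% for H3K9me3. H3K4me3 replicate 1 covered 0.123%, against 1.05% to 1.28% for the other 3. Of the bases in H3K27ac replicate 2, 82.2% also lay under H3K79me2 peaks of the same number, while for replicates 1, 3 and 4 that share was 46.5%, 31.1% and 28.2%. Of the H3K9me3 replicate 4 peaks, 40.0% touched H3K4me1 peaks of the same number, against 0.117% to 0.459% in the other 3. The labels do not say that equal numbers mark the same tumour, so overlaps between marks of 1 number compare separate libraries. The main values that rest on these libraries are also given without them.

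Promoter sequences were looked up first, since CG-rich starts are where H3K4me3 is usually found. RefSeq, in build GRCm38.p6, gives Bcl2l1 3 transcription starts, 3.24 kb apart from first to last, and Myh9 1 start. No Smad7 promoter was read. In that annotation Bcl2l1 overlaps Cox4i2 and is followed by Tpx2, Myh9 lies between Apol8 and Txn2, and Ctif is the next protein-coding gene above Smad7. Bcl2l1 and Myh9 lie on the minus strand, so that transcription runs towards lower coordinates. Each sequence covers 250 bases before to 50 after a start, reads 5′ to 3′ along the gene, and has its CG pairs in capitals. The outermost Bcl2l1 starts and the Myh9 start are shown because they differ in their number of CG pairs. Their positions are chr2:152831679-152831978 and chr2:152828440-152828739 for the first and the last Bcl2l1 start and chr15:77842126-77842425 for Myh9, all in GRCm38.p6, and they were not placed on the mm9 peaks.
Bcl2l1 first start: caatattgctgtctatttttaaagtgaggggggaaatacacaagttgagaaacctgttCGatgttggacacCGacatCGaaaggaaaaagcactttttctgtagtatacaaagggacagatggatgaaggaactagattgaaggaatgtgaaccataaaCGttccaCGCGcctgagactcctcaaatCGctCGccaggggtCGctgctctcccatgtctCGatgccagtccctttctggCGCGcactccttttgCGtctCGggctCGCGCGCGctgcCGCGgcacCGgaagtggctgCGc
Bcl2l1 last start: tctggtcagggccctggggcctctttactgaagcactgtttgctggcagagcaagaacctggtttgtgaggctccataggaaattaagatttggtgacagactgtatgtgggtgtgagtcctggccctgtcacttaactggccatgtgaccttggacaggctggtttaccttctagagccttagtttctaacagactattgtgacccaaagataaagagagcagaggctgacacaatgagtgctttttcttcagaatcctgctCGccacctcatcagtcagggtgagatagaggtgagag
Myh9 start: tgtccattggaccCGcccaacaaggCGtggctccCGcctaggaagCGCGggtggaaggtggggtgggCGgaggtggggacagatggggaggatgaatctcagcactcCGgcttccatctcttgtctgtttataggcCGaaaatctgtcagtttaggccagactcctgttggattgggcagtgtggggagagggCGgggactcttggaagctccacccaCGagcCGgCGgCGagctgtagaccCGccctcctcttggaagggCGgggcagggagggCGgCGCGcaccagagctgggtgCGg

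The first Bcl2l1 start has 22 CG pairs, the middle one 14 and the last one 1, while Myh9 has 19. The median of the 32851 mouse promoters in the same RefSeq table is 7, and 23.1% of them hold 22 or more. The letters GGGCGG (GC box), searched on both strands, occur 6 times in the Myh9 promoter and in none of the 3 Bcl2l1 promoters, and 35.7% of all promoters hold them. The letters CCAAT occur 2 times in Myh9, against 37.4% of all promoters with at least 1 match, and TATAAA 1 time, against 13.6%. The letters CCGGAA, the core of ETS factor sites, occur 1 time in the first Bcl2l1 promoter and are held by 14.9% of all promoters. The E-box letters CACGTG have no match in the 4 promoters, and 7.15% of all promoters hold them. For the AP-1 letters TGANTCA there is no match either, against 7.81% of all promoters. The same is true of the CRE letters TGACGTCA, which 1.79% of all promoters hold.

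H3K27ac peaks covered 40.9%, 49.9%, 80.1% and 75.5% of the Bcl2l1 window in replicates 1 to 4 (61.6% ± 19.1, SD, n = 4), and the mean over all 90 kb tiles of the genome was 2.56%. Without replicate 2 the mean was 65.5%. Replicates 3 and 4 covered more than replicates 1 and 2 and did so in fewer peaks, 10 and 11, with median widths of 2431.5 and 1507 bp. Replicates 1 and 2 had 55 and 73 peaks, with median widths of 361 and 419 bp. Relative to the share of the genome that each list covers, replicates 1 and 2 were instead above replicates 3 and 4. The values for replicates 1 to 4 were 52.7, 58.1, 17.9 and 17.2 times that share. The region that all 4 libraries shared was chr2:152606421-152621976, 15.6 kb long with gaps of up to 1000 bp closed, and it lay 16.42 to 31.98 kb from the lower edge of the window. It was the longest of 7726 shared H3K27ac regions, and the next, outside the 3 windows, measured 12.8 kb. In H3K27ac replicate 1 the widest peak of the whole list, 6780 bp, lay inside it, at 22.6 to 29.4 kb. A second shared H3K27ac region of 8.78 kb followed at 51.2 to 59.9 kb, rank 22 in the genome, and in all the window held 10 shared regions. H3K27ac peaks lay in all 4 libraries here, as they did in 20.1% of 90 kb tiles.

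H3K4me1 covered 25.9%, 31.3%, 50.2% and 45.4% of the Bcl2l1 window (38.2% ± 11.5, SD, n = 4) in 43 to 58 peaks per library. Replicates 3 and 4 were again above replicates 1 and 2, but relative to genome cover they were lower (43.0, 32.3, 27.6 and 21.1 times). Peaks in all 4 libraries were found in 24.3% of tiles. Of the H3K4me1 bases, 77.6%, 82.9%, 99.5% and 97.1% also lay under H3K27ac peaks of the same number, against 19.2%, 21.5%, 68.2% and 68.9% over the genome. Both marks helped to choose the windows, so shares above those of the genome follow from the choice. The longest shared H3K4me1 region, 6.16 kb at 21.9 to 28.1 kb, lay within the long H3K27ac region.

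H3K4me3 formed 1 main domain near the upper end of the Bcl2l1 window. Its widest peak was 7408 bp (60.4 to 67.8 kb from the lower edge) in replicate 2, 6067 bp (61.6 to 67.6 kb) in replicate 3 and 6339 bp (61.2 to 67.5 kb) in replicate 4. In replicate 1 only 4 short peaks were called there, the widest of 664 bp. The 3 broad peaks ended between 67.5 and 67.8 kb and were each wider than the 3.24 kb between the outermost annotated starts. The long H3K27ac region, which ended at 31.98 kb, lay apart from this domain, on the side towards which the gene is transcribed. H3K4me3 covered 1.97%, 11.7%, 10.8% and 11.7% of the window (9.03% ± 4.73, SD, n = 4; 11.4% without replicate 1). All 4 libraries had a peak, as in 15.5% of tiles. The bases shared by all 4 libraries came to 1672 bp and, without replicate 1, those shared by the other 3 came to 8504 bp. Smaller H3K4me3 peaks, across the lower edge of the window and at 83.4 to 84.6 kb, were called in replicates 2, 3 and 4.

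Of the marks with peaks in all 4 libraries, H3K79me2 varied least over Bcl2l1. It covered 69.1%, 65.9%, 68.5% and 67.2% of the window (67.7% ± 1.44, SD, n = 4), and peaks in all 4 libraries occurred in 22.6% of tiles. Only 0.579% of 90 kb tiles had a mean at or above it. Of the bases covered in any library, 85.7% were covered in all 4, against 39.1% over the genome. A single peak of 56033 bp, from 11.5 to 67.5 kb, made up most of it in replicate 1, and the same stretch was divided into several peaks in the other libraries. Its upper end, at 66.5 to 67.5 kb, lay close to the upper end of the H3K4me3 domain, and from there it ran to the far side of the long H3K27ac region. The annotated gene is 75.1 kb long in the RefSeq table. H3K27me3 had no peak in the window in any library, as in 69.7% of tiles (11.4% had one in all 4 libraries), which says only that none passed the caller's threshold. H3K9me3 had 4 peaks of 252 to 438 bp in replicate 4 and none in the other 3 libraries, a pattern found in 7.43% of tiles. Peaks in all 4 H3K9me3 libraries occurred in 3.16% of tiles.

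**Figure D1:**
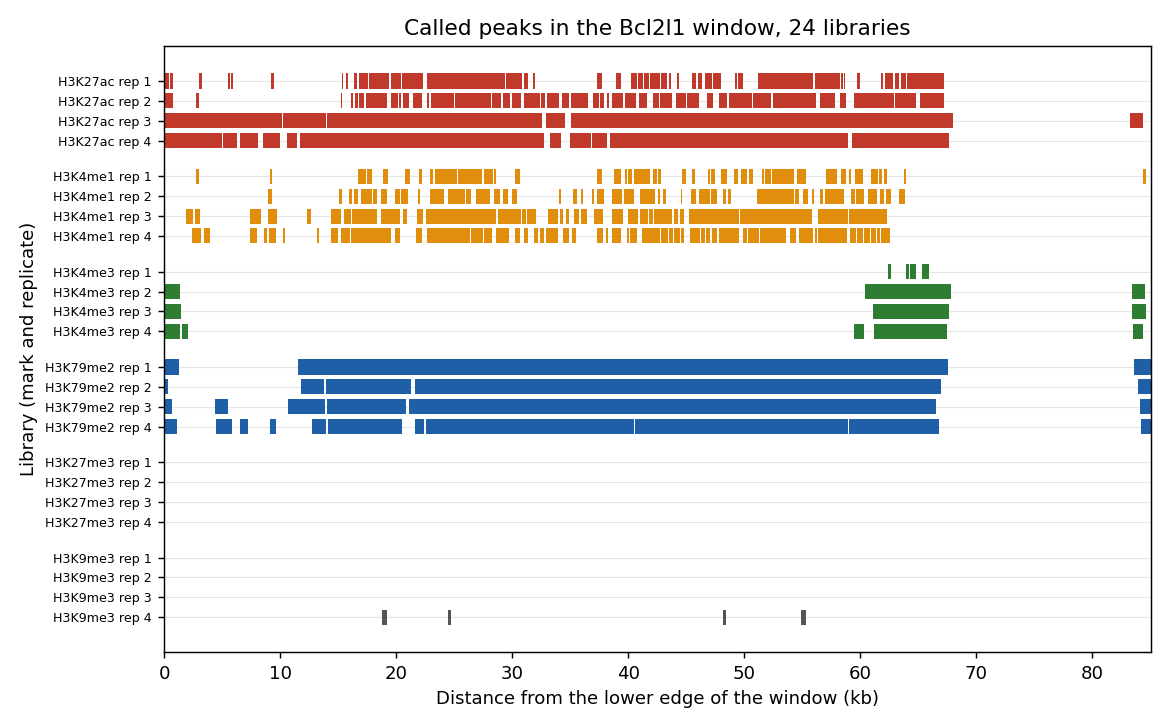
Each bar is a called peak in the Bcl2l1 window, plotted by its distance from the lower edge in kb, with 1 row per library and 1 colour per mark. H3K27ac lies in fewer and mostly wider peaks in replicates 3 and 4 than in replicates 1 and 2. H3K79me2 covers most of the stretch from about 11.5 to 67.5 kb, and H3K4me3 sits at its upper end in a domain of up to 7408 bp. H3K27me3 rows are empty and H3K9me3 peaks occur in replicate 4 only.

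Myh9 held the longest H3K4me1 region that all 4 libraries share. H3K4me1 covered 30.3%, 37.3%, 39.8% and 51.3% of the window (39.7% ± 8.72, SD, n = 4), against a mean of 1.35% over all tiles. Replicate 1 was lowest and replicate 4 highest, while relative to genome cover replicate 1 was highest (50.3, 38.5, 21.9 and 23.8 times). The region shared by all 4 libraries, chr15:77643193-77668673, measured 25.5 kb and lay 63.2 to 88.7 kb from the lower edge. It was the longest of 9934 shared H3K4me1 regions, and the next, outside the windows, measured 21.6 kb. In H3K4me1 replicate 4 a peak of 27329 bp (48.2 to 75.5 kb) was the widest of the whole list and the only one of at least 20 kb in any H3K4me1 library. In the other 3 libraries the widest H3K4me1 peaks here measured 2723, 3314 and 5230 bp.

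H3K27ac covered 24.8%, 36.8%, 54.7% and 59.6% of the Myh9 window (44.0% ± 16.1, SD, n = 4; 46.3% without replicate 2). As at Bcl2l1, replicates 3 and 4 were above replicates 1 and 2, with 5 and 3 peaks against 50 and 66, and relative to genome cover they were lower (31.9, 42.8, 12.2 and 13.6 times). Replicate 4 had a peak of 58146 bp from 45.6 to 103.7 kb, the fourth widest of its list. The 4 libraries shared 21715 bp, and 37644 bp were shared without replicate 1. The 3 longest shared H3K27ac regions were 10.2, 9.30 and 8.85 kb long and ranked 10, 16 and 21 of 7726. Of the H3K4me1 bases, 55.5%, 76.8%, 98.9% and 100% also carried H3K27ac of the same number, and the shares over the genome (19.2%, 21.5%, 68.2% and 68.9%) were likewise higher in replicates 3 and 4. Here too, shares above those of the genome follow from the choice of windows.

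H3K4me3 at Myh9 was narrower than at the other 2 genes. It covered 1.05%, 5.16%, 4.32% and 4.78% of the window (3.83% ± 1.89, SD, n = 4; 4.75% without replicate 1). Replicate 1 was the lowest library here too. The widest peaks of replicates 2, 3 and 4 measured 5679, 3307 and 5263 bp and ended 92.9, 92.9 and 93.6 kb from the lower edge. The shared H3K4me3 region of 2.00 kb ranked 174 of 5063, and the bases in common were 1150 bp with all 4 libraries and 3830 bp without replicate 1.

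In percentage points of cover, H3K79me2 differed between libraries at Myh9 more than any other mark there. Replicates 1, 2 and 4 covered 3.66%, 3.31% and 9.21% of the window, and replicate 3 covered 64.2% (20.1% ± 29.5, SD, n = 4; 5.39% without replicate 3). In replicate 3 a peak of 56291 bp (27.1 to 83.4 kb) and one of 9105 bp (83.5 to 92.6 kb) spanned the stretch that carried H3K27ac and H3K4me1 in all libraries, up to the end of the H3K4me3 domain. In replicates 1, 2 and 4 no H3K79me2 peak was called above 26.9 kb, and the only peaks lay between 16.6 and 26.9 kb. Thus 77.0% of the H3K27ac bases of replicate 3 were also under H3K79me2, and none of those of replicates 1, 2 and 4. The score of the 56291 bp peak was 164.7, while the median was 165.6 over its list and 1283 over the 857 peaks of at least 20 kb in it. The 9105 bp peak scored 3100. A difference of this kind was uncommon: over the genome, H3K79me2 replicate 3 covered at least 30 percentage points more than each of the other 3 libraries in 7 of 29358 tiles. Peak lists alone do not tell a difference in the mark from a difference in how very wide peaks were called, and this was not tested.

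Repressive marks at Myh9 were few outside 1 library. H3K27me3 peaks of 415 to 2261 bp lay at the lower edge in replicates 1, 3 and 4, within 4.4 kb, and covered at most 2.13% of the window. H3K9me3 replicate 4 had 25 peaks that covered 19.5% of the window, and the other 3 H3K9me3 libraries had none. All 25 touched H3K4me1 and H3K27ac peaks of replicate 4. The mean H3K9me3 cover was 4.88% with all 4 libraries and 0 without replicate 4.

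**Figure D2:**
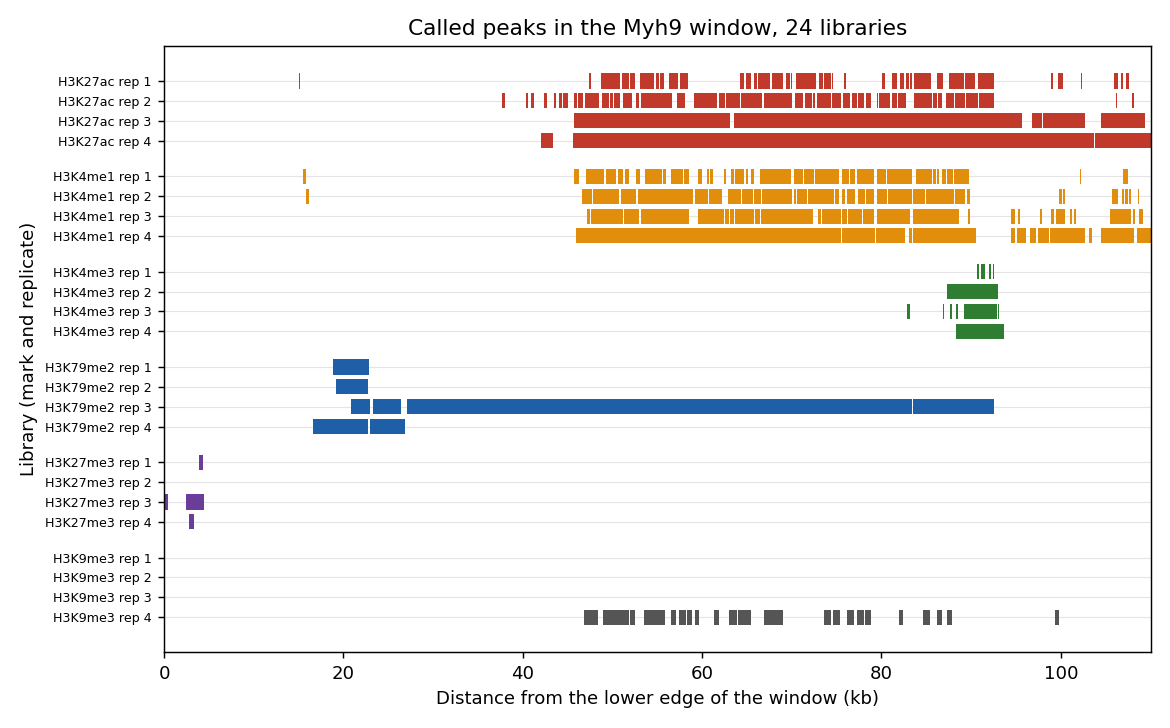
Each bar is a called peak in the Myh9 window, plotted by its distance from the lower edge in kb, with 1 row per library and 1 colour per mark. H3K27ac and H3K4me1 are dense from about 46 kb upwards, with few peaks below, the H3K79me2 peak of 56291 bp appears in replicate 3 only, and the 25 H3K9me3 peaks of replicate 4 follow the H3K4me1 rows.

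At Smad7, H3K4me3 was the widest of the 3 genes. Its main peak measured 10325 bp in replicate 2, 9970 bp in replicate 3 and 10327 bp in replicate 4, at 25.7 to 36.1 kb above the lower edge, and ranked 8, 2 and 17 by width in these lists. In replicate 1 the same stretch held 10 short peaks, the widest of 1395 bp, yet that peak ranked 18 by width in its list. The region shared by all 4, chr18:75527318-75533135, measured 5.82 kb, second of 5063. The first, on chromosome 5, measured 6.46 kb and the third 5.34 kb, both outside the windows. H3K4me3 covered 6.01%, 16.3%, 17.1% and 15.9% of the window (13.8% ± 5.22, SD, n = 4; 16.4% without replicate 1), and 4083 bp were shared with replicate 1 and 11479 bp without it. A second, smaller H3K4me3 peak of 1596 to 1871 bp lay at 1.6 to 3.5 kb in replicates 2, 3 and 4.

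H3K27ac covered 18.9%, 24.1%, 70.04% and 71.7% of the Smad7 window (46.2% ± 28.6, SD, n = 4; 53.6% without replicate 2). Relative to genome cover the ratios were 24.4, 28.0, 15.6 and 16.3, again higher in replicates 1 and 2. In replicates 3 and 4 single peaks of 32239 and 33639 bp ran from 21.2 to 53.4 kb and from 21.5 to 55.2 kb. The longest shared H3K27ac region, 7.08 kb at 26.4 to 33.5 kb, lay on the H3K4me3 domain and not beyond it as at Bcl2l1. The shared bases came to 9063 bp, to 17597 bp without replicate 1 and to 14186 bp without replicate 2. H3K4me1 covered 15.9%, 18.0%, 39.3% and 41.4% (28.7% ± 13.6, SD, n = 4), and its longest shared region, 9.45 kb at 42.2 to 51.7 kb, lay above the H3K4me3 domain and ranked 19 of 9934. A peak of 7906 bp there (44.4 to 52.3 kb) had the score 3100, a value that recurs in many lists and does not rank the peaks that share it.

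H3K79me2 covered 46.6%, 1.76%, 40.7% and 40.3% of the Smad7 window (32.3% ± 20.6, SD, n = 4; 42.5% without replicate 2). Replicates 1, 3 and 4 lay close together and replicate 2 far below them, with a single peak of 1317 bp. The peak of replicate 3 ran from 26.98 to 56.6 kb, 29604 bp, while the annotated gene is 28.6 kb long in the RefSeq table. In replicate 1 a peak of 33130 bp covered nearly the same stretch with a score of 56.85, just above the lowest score of about 50, and peaks of 18405 and 9790 bp in replicate 4 scored 1393 and 3100. Of the H3K79me2 peaks of at least 20 kb in replicate 1, 69 of 989 scored under the median of all peaks. Over the genome, H3K79me2 replicate 2 covered at least 30 percentage points less than each of the other 3 libraries in 49 of 29358 tiles. The bases shared by all 4 H3K79me2 libraries came to 759 bp, and those shared without replicate 2 to 28954 bp. H3K27me3 had no peak in any library, and H3K9me3 had 8 peaks of 404 to 569 bp in replicate 4 alone, covering 5.15%.

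**Figure D3:**
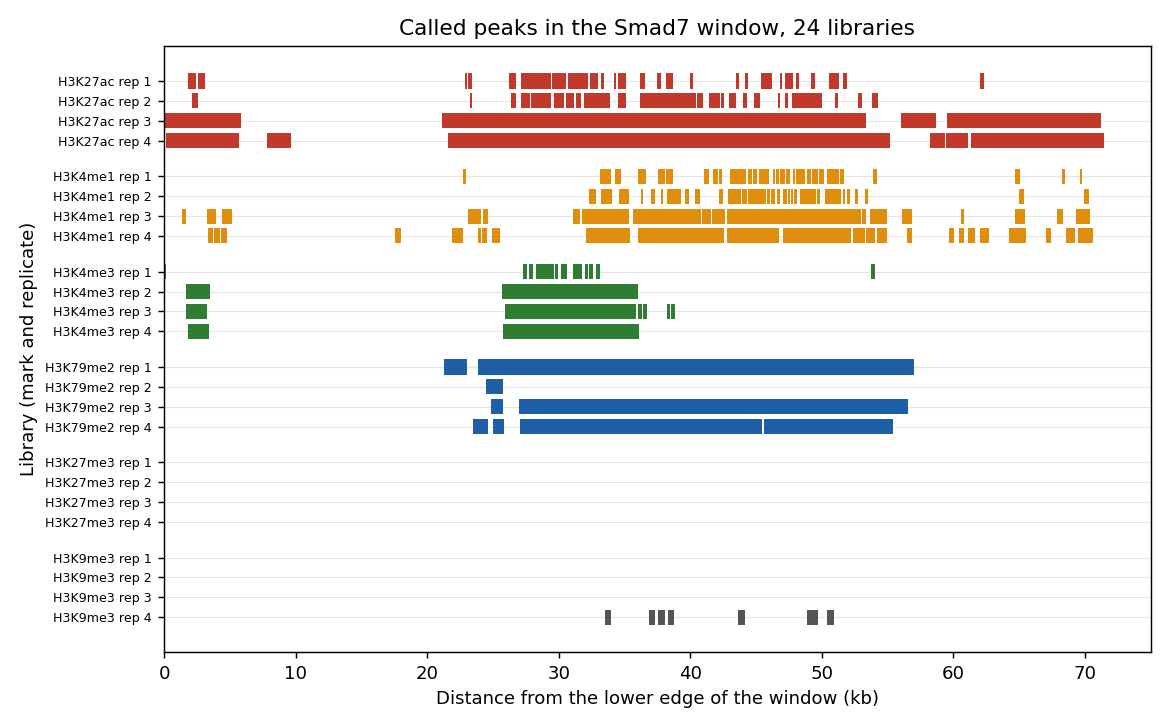
Each bar is a called peak in the Smad7 window, plotted by its distance from the lower edge in kb, with 1 row per library and 1 colour per mark. The H3K4me3 peaks of about 10 kb in replicates 2, 3 and 4 stand at 25.7 to 36.1 kb, H3K4me1 is densest above them, and H3K79me2 replicate 2 holds a single peak of 1317 bp.

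The 3 marks whose lengths did not choose the windows were compared within each of them, H3K79me2 against each repressive mark. The choice still bears on the outcome: over the genome 0.0468% to 1.73% of H3K27ac bases also lay under H3K27me3 and 28.2% to 82.2% under H3K79me2. The differences are therefore a description of windows picked for active marks, with p-values for the spread between libraries only. All 70 ways to split the 8 libraries were enumerated in an exact permutation test, two-sided, which can give no p below 0.0286. Benjamini-Hochberg adjustment ran over the 3 windows together with each 90 kb tile that held a peak of either mark. Against H3K27me3, H3K79me2 covered 67.7 percentage points more at Bcl2l1, 19.4 more at Myh9 and 32.3 more at Smad7. At all 3 genes every H3K79me2 library was above every H3K27me3 library (16 of 16 pairs, exact permutation p 0.0286, adjusted 0.0526). That is the pattern of 39.3% of the tiles tested, and the opposite pattern held in 15%. At Bcl2l1 and Smad7 all 4 H3K27me3 libraries were at 0, so any called H3K79me2 peak in each library gives that p, and at Smad7 replicate 2 had only its peak of 1317 bp. With 0 tiles at an adjusted p under 0.05 and 7380 at an unadjusted p under 0.05, this design left no tile or window past the adjusted threshold. At Myh9 the difference was 5.10 points without replicate 3. Relative to genome cover, H3K79me2 replicates 1 to 4 at Myh9 stood at 0.670, 0.547, 11.6 and 2.07 times their share. H3K27me3 replicates 1 to 4 stood at 0.898, 0, 0.535 and 0.393 times, so the libraries of the marks overlapped on that scale. At Smad7, H3K79me2 replicate 2 stood at 0.290 times its share. The separation did not hold under score filters at Myh9 and Smad7, nor at Myh9 with the window widened by 10 kb on each side (15.7 points, exact permutation p 0.0857, adjusted 0.149). When peaks under the median score were left out, the differences were 18.7 points at Myh9 (exact permutation p 0.143) and 19.7 at Smad7 (exact permutation p 0.429). When each library kept only its 5224 best-scored peaks, they were 2.07 points (exact permutation p 1) and 19.3 (exact permutation p 0.429).

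Against H3K9me3, H3K79me2 covered 67.2 percentage points more at Bcl2l1, in 16 of 16 pairs of libraries (exact permutation p 0.0286, adjusted 0.0521). Every H3K79me2 library lay above every H3K9me3 library in 51.7% of the tiles tested and below in 3.13%. At Smad7 the difference was 31.0 points in 15 of 16 pairs (exact permutation p 0.0571, adjusted 0.103), and at Myh9 15.2 points in 13 of 16 pairs (exact permutation p 0.457, adjusted 0.603). The Myh9 value rested on single libraries, at -1.11 points without replicate 3 and 23.7 points without replicate 4. The Smad7 value was 40.8 points without replicate 2 and 29.7 without replicate 4, and the Bcl2l1 value was 67.8 without replicate 4. Under the same 2 score filters the Smad7 difference was 19.7 and 18.9 points (exact permutation p 0.429 in both).

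**Figure D4:**
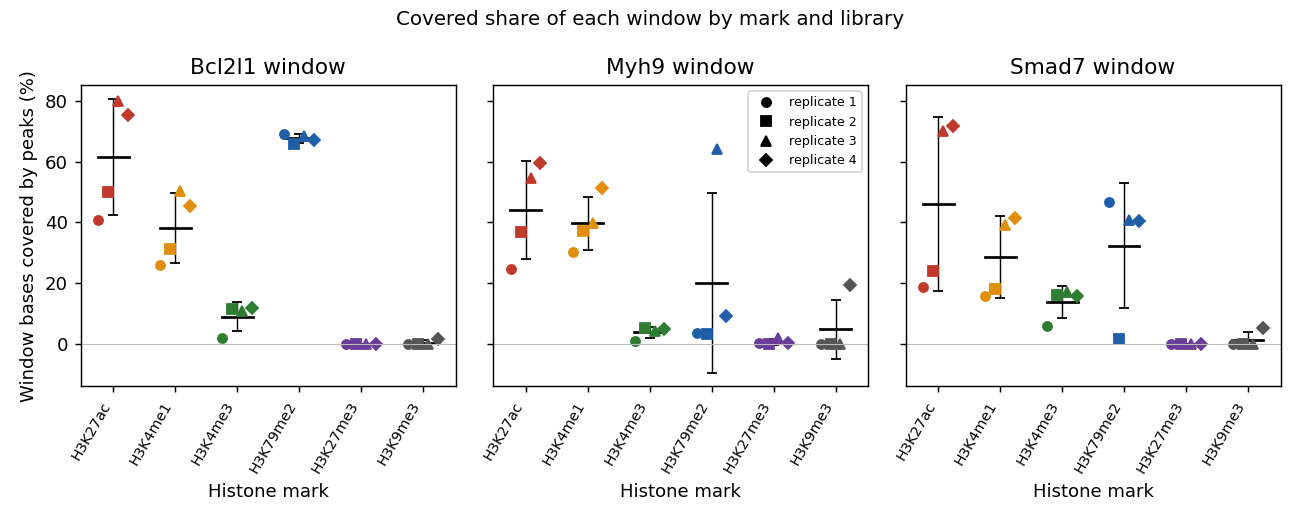
The percentage of window bases under called peaks is plotted for each mark and window, with a symbol for each replicate, a line for the mean and a bar for 1 SD either way (n = 4). H3K79me2 libraries lie within 65.9% to 69.1% at Bcl2l1 but from 3.31% to 64.2% at Myh9 and from 1.76% to 46.6% at Smad7, and H3K27ac replicates 3 and 4 lie above replicates 1 and 2 in each window.

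Within the acetylated stretches, H3K4me1 was sparser where H3K4me3 was present. At Bcl2l1, H3K4me1 peaks lay over 1.19%, 28.8%, 12.9% and 21.5% of the H3K27ac bases that also carried H3K4me3, in replicates 1 to 4. They lay over 51.4%, 56.7%, 69.7% and 64.6% of the H3K27ac bases without it. At Myh9 the shares were 0, 42.6%, 23.2% and 39.8% with H3K4me3 and 70.4%, 83.0%, 76.2% and 90.1% without. At Smad7 they were 0, 22.6%, 44.0% and 29.4% with H3K4me3 and 41.5%, 57.6%, 56.6% and 63.3% without. In each window and replicate the share was higher outside H3K4me3, and no test was made because the lengths of these marks chose the windows. Over the genome the shares were 2.94%, 23.0%, 16.7% and 15.1% with H3K4me3 and 15.5%, 24.4%, 30.3% and 38.3% without, so the same order held there.

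**Figure D5:**
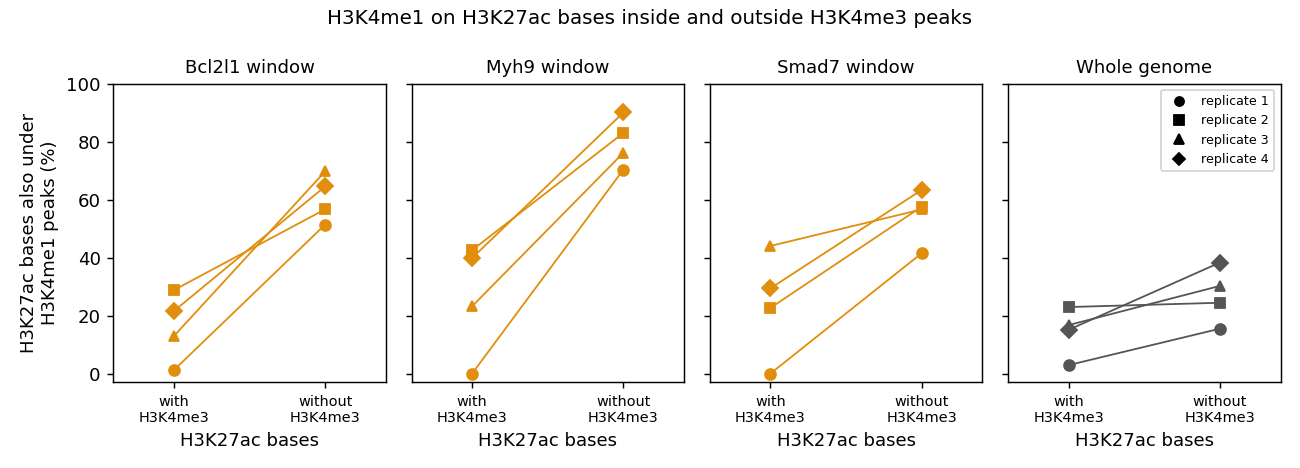
The percentage of H3K27ac bases that also lie under H3K4me1 peaks of the same replicate number is plotted for bases with and without an H3K4me3 peak, with 1 line per replicate, in the 3 windows and over the whole genome. Each line rises from left to right, from at most 44.0% to at least 41.5% in the windows.

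The overlap of H3K27ac with H3K79me2 varied with the library at Myh9 and Smad7. At Bcl2l1, 97.7%, 97.4%, 83.3% and 84.95% of H3K27ac bases lay under H3K79me2 peaks of the same number, against 46.5%, 82.2%, 31.1% and 28.2% over the genome. At Smad7 the shares were 87.6%, 0, 53.1% and 55.8%, and at Myh9 0, 0, 77.0% and 0. Bcl2l1 thus had the highest share in every replicate, while the order of Myh9 and Smad7 changed with the library. Differences between the genes were not tested. Most bases of H3K27ac replicate 2 lay in H3K79me2 regions over the genome. This library covered 36.8% of the Myh9 window and 24.1% of the Smad7 window, where H3K79me2 replicate 2 had 1 peak each and shared no base with it. The cause of its overlap with H3K79me2 was not tested.

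The 37 H3K9me3 peaks of the windows all came from replicate 4, and all of them touched both an H3K4me1 and an H3K27ac peak of that number. Over the genome the shares of H3K9me3 replicate 4 peaks that did so were 40.0% and 37.0%. The windows were chosen for long H3K27ac and H3K4me1 regions, so a higher share in them follows from the choice. At Myh9 all 25 lay within the H3K27ac peak of 58146 bp. The Myh9 window stood out among tiles, with 0.538% of them at or above its mean H3K9me3 cover of 4.88%, a value that replicate 4 alone set. Among H3K79me2 peaks of replicate 4, the H3K9me3 peaks touched one in 4 of 4 cases at Bcl2l1, 0 of 25 at Myh9 and 8 of 8 at Smad7, against 36.3% of all H3K9me3 replicate 4 peaks. The cause of the overlap with active marks was not tested.

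The pattern of cover over the 24 libraries was also compared with that of all other 90 kb tiles, as a description. The tile most like the Bcl2l1 window was chr7:71010001-71100000 (Pearson's r 0.99 over 24 libraries), with mean covers of 44.5% for H3K27ac, 30.3% for H3K4me1 and 53.6% for H3K79me2. For Smad7 it was chr17:71460001-71550000 (r 0.97), and for Myh9 chr4:138690001-138780000 (r 0.97), where H3K27ac and H3K4me1 each covered about 24% and H3K79me2 11.2%. The second tile for Myh9 was less close (r 0.86), while the second tiles for Bcl2l1 and Smad7 reached 0.98 and 0.96. These correlations include differences between marks that many active regions share and differences in how much each list covers.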

How the data were processed

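The deposited files are peak lists, 1 for each of 24 antibody libraries. Per the submitters' processing notes, CASAVA 1.7, Bowtie, MACS and deepTools were used with build mm9, with no settings given. Each peak has a score from the authors, whose scale is not given in the sources used here. Its lowest value lay between 50 and 50.04 in every list, and it served to rank and filter peaks within lists. Peak calls depend on depth, which is unknown.

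Overlapping peaks of a library were merged, and covered bases were counted in each window and in 29358 consecutive tiles of 90 kb that run to the last base covered by any peak. Scripts used Python 3.11.15, numpy 2.4.6 and scipy 1.17.1 and were tested on simulated data. Shared regions had gaps of up to 1000 bp closed. Tiles most like a window were named by the highest Pearson correlation over the libraries. The windows, genes and tests were chosen with earlier results of these data known. Without gene positions in mm9, pathway genes and cell type markers were not counted. Promoters were read for Bcl2l1 and Myh9, and Smad7 was left out of that step. Alternatives tried were 2 score filters, merging of peaks closer than 1 kb, peaks with at least 50% of their length in the window, windows 10 kb narrower or wider on each side, other tiles, leaving out each replicate in turn, and a block for the replicate number.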

Additional observations from a re-analysis of the deposited data

Results flagged for a closer look

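In 32 groups of 4 libraries (covered percentage and number of peaks, for each mark and window with any difference), 10 had a library farther from the others than Dixon's 95% critical value allows. Chance alone sets a library apart in about 1 in 20 groups of spread values. That rate does not apply to the 6 H3K9me3 groups, in which 3 libraries are at 0 and any other value stands apart, and flags that share a library are not independent. H3K9me3 replicate 4 was set apart in all 3 windows, with 4 peaks and 1.69% covered at Bcl2l1, 25 peaks and 19.5% at Myh9, and 8 peaks and 5.15% at Smad7, where the other 3 libraries had none. H3K4me3 replicate 1 lay below the others at Bcl2l1 (1.97% covered) and at Smad7 (6.01%), and it covered the smallest share of the genome of its mark. H3K79me2 replicate 3 lay above the others at Myh9, with 64.2% covered. H3K79me2 replicate 2 lay below them at Smad7, with 1.76% covered. The causes were not tested.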

How the results depend on the processing

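No difference passed the adjusted threshold at first, and without 1 replicate or with the block none could, so staying on that side of it says nothing about stability. When only peaks scoring 92.2 (the median) or more were kept, the difference between H3K79me2 and H3K9me3 at Bcl2l1 was 66.6 points and passed it (exact permutation p 0.0286, adjusted 0.0448; range over alternatives 0.0448 to 0.224). The exact permutation p at Bcl2l1 was 0.0286 with and without this filter, so the adjusted value fell through the other tiles alone. The Myh9 difference between H3K79me2 and H3K9me3 was -1.90 points with the 5224 best-scored peaks of every library and -1.11 without replicate 3, and the cause was not tested.

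Leaving out 1 replicate gave 67.2 to 68.3 points at Bcl2l1, 5.10 to 24.7 at Myh9 and 27.6 to 42.5 at Smad7 against H3K27me3, and 66.6 to 67.8, -1.11 to 23.7 and 25.9 to 40.8 against H3K9me3. Against H3K27me3, the best-scored peaks gave 2.07 points at Myh9 and 19.3 at Smad7. Mean cover moved beyond 1 SD in 9 of 180 cases. Background shares of tiles moved beyond their 95% binomial interval in 27 of 44 cases, all with tiles of another length: tiles with H3K27ac peaks in 4 of 4 libraries were 17.8% at 75 kb and 22.6% at 110 kb. With the 5224 best-scored peaks, Bcl2l1 had 38.7% for H3K27ac, 18.3% for H3K4me1 and 47.2% for H3K79me2, and Myh9 had 16.4% for H3K27ac and 23.7% for H3K4me1. Merging peaks closer than 1 kb gave 51.0% for Bcl2l1 H3K4me1. Bcl2l1 H3K79me2 was 65.4% from peaks with at least 50% of their length inside and 84.1% in the narrowed window, and Smad7 H3K27me3 was 0.0582% in the widened one.

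Deviations of same-numbered libraries over tiles, examined for the 2 tested pairs of marks only, correlated at -0.122 to -0.0469 for H3K79me2 with H3K27me3. For H3K79me2 with H3K9me3 the values ranged from -0.0220 to 0.203, and replicates 2 and 4 correlated best with their own number while 1 and 3 did not. H3K79me2 and H3K27me3 rarely lie on the same bases, so a negative correlation between them cannot decide whether equal numbers mark the same tumour. Marks that often lie together were not examined, and the numbers were not taken to pair the libraries. With the replicate block the exact permutation p could not fall below 0.125. The block cannot change a mean difference, so the Bcl2l1 difference from H3K27me3 was by design 67.7 points again (adjusted 0.221). Depth could not be examined, since the lists hold no counts.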
